A study of Homo sapiens with 4 samples.

Results

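The transcripts described here carry LINC symbols, the names given to long RNA genes that lie between protein-coding genes and have no established function in their name. They were taken as the rows of the expression table whose symbol is LINC followed by digits and whose mean over the 4 libraries was at least 1 TPM (a transcript's share of its library per unit of transcript length), so that they were chosen by their measured level in the same libraries. This left 163 of the 2119 LINC rows, in a table of 38972 rows of which 15651 reached the same mean. RNA was sequenced from HEK293T, a widely used cell line of human embryonic kidney origin, in 2 libraries labelled oeRNH1, for overexpression of RNase H1, and 2 libraries labelled oeFlag, for overexpression of Flag, an epitope tag. The labels give no other treatment, time or clone, and do not say how the constructs were introduced or whether replicates were separate cultures, so that p-values measure the spread between these libraries, which may be technical.

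Long intergenic RNAs are transcribed by RNA polymerase II, and many are spliced and polyadenylated like messenger RNAs, but they are mostly less abundant and more restricted to particular cell types. A few act on neighbouring genes or as scaffolds for proteins, some hold microRNA hairpins or short open reading frames, and for most no role is known. RNase H1 cuts RNA that is paired with DNA, as in R-loops, in which a transcript anneals to one strand of the DNA it came from. The comparison asks which transcripts differ in level between the libraries labelled for the enzyme and those labelled for the tag.

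RNASEH1, the gene of the enzyme, was at 29.93 and 29.67 TPM in the libraries labelled oeRNH1, against 32.09 and 32.8 TPM in those labelled oeFlag. The table therefore shows no higher level of this transcript where the label states overexpression (log2 fold change -0.12 ± 0.06, SE, limma adjusted p = 0.260), and groups are called by their labels throughout. Whether reads of a construct would have been counted in this row cannot be read from TPM. Of the embryonic kidney and neural-like markers of the line, VIM lay between 867.46 and 979.02 TPM, NEFM between 29.33 and 44.85 TPM and PAX2 between 1.29 and 1.86 TPM. Among markers of other cells PTPRC of leukocytes did not pass 0.02 TPM and PECAM1 of endothelium 0.29 TPM, while ALB of hepatocytes lay between 0.23 and 2.05 TPM, EPCAM of epithelium between 1.51 and 4.33 TPM and COL1A1 of fibroblasts between 14.14 and 18.64 TPM. Columns summed to between 998901 and 998955 TPM, and since TPM keeps no read number the sequencing depth is unknown.

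Most LINC transcripts were scarce. Of the 163, 67 had a mean of 1 to under 2 TPM, 54 of 2 to under 5 TPM, and 42 of 5 TPM or more. Their median was 2.22 TPM, and the highest mean was 82.2 TPM, of LINC01002. Together they held 852.6 and 857.6 TPM in the libraries labelled oeRNH1, against 879.2 and 886.3 TPM in those labelled oeFlag. The libraries labelled oeRNH1 were lower in this sum, and without LINC01002 the sums were 784.8 and 784.1 TPM in them, against 785.0 and 793.0 TPM in those labelled oeFlag. The threshold on the mean decided membership at the low end. LINC01134, LINC01619 and LINC00449, at means of 1.01, 1.01 and 1.02 TPM, lay just inside it, and LINC02021, LINC02301 and LINC00461, at 0.983, 0.985 and 0.993 TPM, just outside. For 21 of the 163 only one group had a mean of at least 1 TPM, 8 through the libraries labelled oeRNH1 and 13 through those labelled oeFlag. By limma 0 of these 21 passed the test, where 3.38% of all rows with a mean of 1 to under 5 TPM did. At that share 0 of 21 is no result about these transcripts.

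Of the 163 transcripts, 2 rose and 6 fell in the libraries labelled oeRNH1 at an adjusted p under 0.05 (limma on log2(TPM + 1), two-sided, Benjamini-Hochberg over all 15651 rows), and 155 did not pass. This is 4.91% of them, where 11.8% of all rows tested were called. Upward it was 2 of 163 beside 6.3% of all rows, and downward 6 of 163 beside 5.54%. At an unadjusted p under 0.05 there were 31 of 163 (19.0%), beside 31.3% of all rows. The median log2 fold change of the LINC transcripts was -0.02, with quartiles at -0.27 and 0.18, against a median of 0.00 with quartiles at -0.17 and 0.17 over all rows. These are bulk libraries, in which fewer cells that make a transcript and less of it per cell cannot be told apart.

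**Figure D1:**
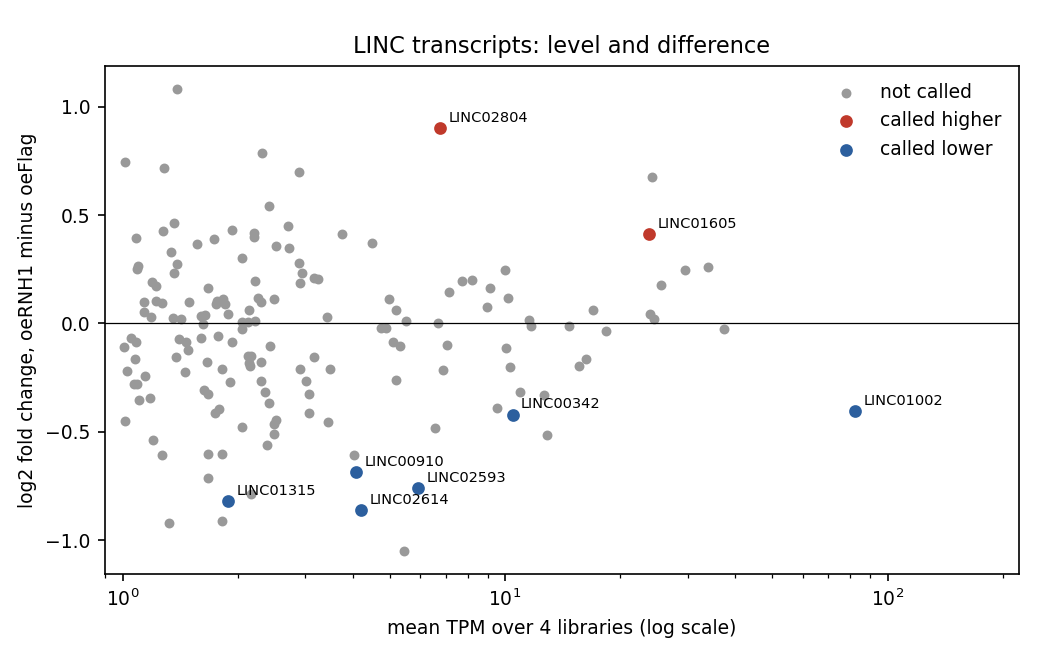
Log2 fold change, oeRNH1 minus oeFlag on the log2(TPM + 1) scale, of each of the 163 LINC transcripts (vertical axis) by its mean TPM over the 4 libraries (horizontal axis, log scale). The 8 called transcripts are named, 2 above and 6 below the zero line, and most uncalled points under 5 TPM scatter widely around it.

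LINC02804 rose most among the called transcripts. It had 9.75 and 8.47 TPM in the libraries labelled oeRNH1, against 3.87 and 5.01 TPM in those labelled oeFlag. Both libraries labelled oeRNH1 were higher than both of the others, at a ratio of means of 2.05 (9.11 ± 0.905 against 4.44 ± 0.806 TPM, SD, n = 2 each). The log2 fold change was 0.90 ± 0.15 (SE), with a 95% interval from 0.53 to 1.26 (limma adjusted p = 0.0229). LINC02804 (ENSG00000274372) is a short gene of 3 exon blocks, in which overlapping exons of its transcripts are joined. It lies on the plus strand of chromosome 1, from 148021850 to 148025931 (GENCODE release 29 on GRCh38), and 13.8% of its 31-base words also occur in transcripts of LINC01731.

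LINC01605 was the other transcript that rose. It had 26.465 and 28.11 TPM in the libraries labelled oeRNH1, against 18.635 and 21.98 TPM in those labelled oeFlag. The groups did not overlap, at a ratio of means of 1.34, and the log2 fold change was 0.41 ± 0.10 (SE, 95% interval from 0.17 to 0.65, limma adjusted p = 0.0476). Its values are among the 15 rows of the table with more than 2 decimals, as an average of several entries would give, so they are uncertain. The adjusted p was 0.0531 under quantile normalization (log2 fold change 0.41) and 0.0511 under median-of-ratios scaling (0.40), so the call was lost while the fold change stayed about as large. LINC01605 (ENSG00000253161) spans 37421341 to 37554183 on the minus strand of chromosome 8 in 10 exon blocks and shared no 31-base word with another annotated gene.

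Of the 6 called lower, LINC02614 had the most negative log2 fold change, on the log2(TPM + 1) scale. It had 2.39 and 3.02 TPM in the libraries labelled oeRNH1, against 6.02 and 5.4 TPM in those labelled oeFlag. The ratio of means was 0.474 (2.71 ± 0.445 against 5.71 ± 0.438 TPM, SD, n = 2 each), and the log2 fold change was -0.86 ± 0.15 (SE, 95% interval from -1.24 to -0.49, limma adjusted p = 0.0267). LINC02614 (ENSG00000241288) lies on the minus strand of chromosome 3, from 125827238 to 125916384, with 21 exon blocks and 20.3% of its 31-base words in other genes.

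LINC01315 was the scarcest of the called transcripts. It had 1.08 and 1.10 TPM in the libraries labelled oeRNH1, against 2.97 and 2.42 TPM in those labelled oeFlag. The pair labelled oeRNH1 lay close together and below both of the others, at a ratio of means of 0.404 and a log2 fold change of -0.82 ± 0.19 (SE, limma adjusted p = 0.0431). Corrected for GC content, the log2 fold change was -0.77 and missed the threshold (limma adjusted p = 0.0532). LINC01315 (ENSG00000229891), with 2 exon blocks and a longest transcript of 57.1% GC, spans 42364400 to 42369236 on the minus strand of chromosome 22.

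LINC02593 is a gene of 1 exon block (ENSG00000223764) on chromosome 1, from 916865 to 921016 on the minus strand, whose longest transcript has 61.7% GC. It had 4.30 and 3.96 TPM in the libraries labelled oeRNH1, against 7.03 and 8.40 TPM in those labelled oeFlag. The groups were well apart, at a log2 fold change of -0.76 ± 0.13 (SE, limma adjusted p = 0.0262). LINC00910 (ENSG00000188825, chromosome 17, 43369845 to 43389199, minus strand) had 2.51 and 3.29 TPM in the libraries labelled oeRNH1, against 5.14 and 5.36 TPM in those labelled oeFlag. It fell by 0.69 ± 0.16 on the log2 scale (SE, limma adjusted p = 0.0436). Corrected for GC content, exon length and gene span, the log2 fold change was -0.68 at an adjusted p of 0.0511.

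LINC00342 and LINC01002 fell by less and are both partly repeated elsewhere in the genome. LINC00342 (ENSG00000232931, chromosome 2, 95807118 to 95816215, minus strand) had 8.56 and 9.08 TPM in the libraries labelled oeRNH1, against 11.95 and 12.32 TPM in those labelled oeFlag (log2 fold change -0.42 ± 0.09, SE, limma adjusted p = 0.0427). Of its 31-base words 48.0% occur in other genes, so reads may have been shared and the value is uncertain. LINC01002 (ENSG00000282508, chromosome 19, 198264 to 239440, minus strand), the most abundant of the 163, had 67.83 and 73.47 TPM in the libraries labelled oeRNH1, against 94.21 and 93.32 TPM in those labelled oeFlag. The difference was well outside the spread within groups, at a ratio of means of 0.753 and a log2 fold change of -0.40 ± 0.06 (SE, limma adjusted p = 0.0172). With 77.8% of its 31-base words in other genes, this level cannot be assigned to the one locus.

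**Figure D2:**
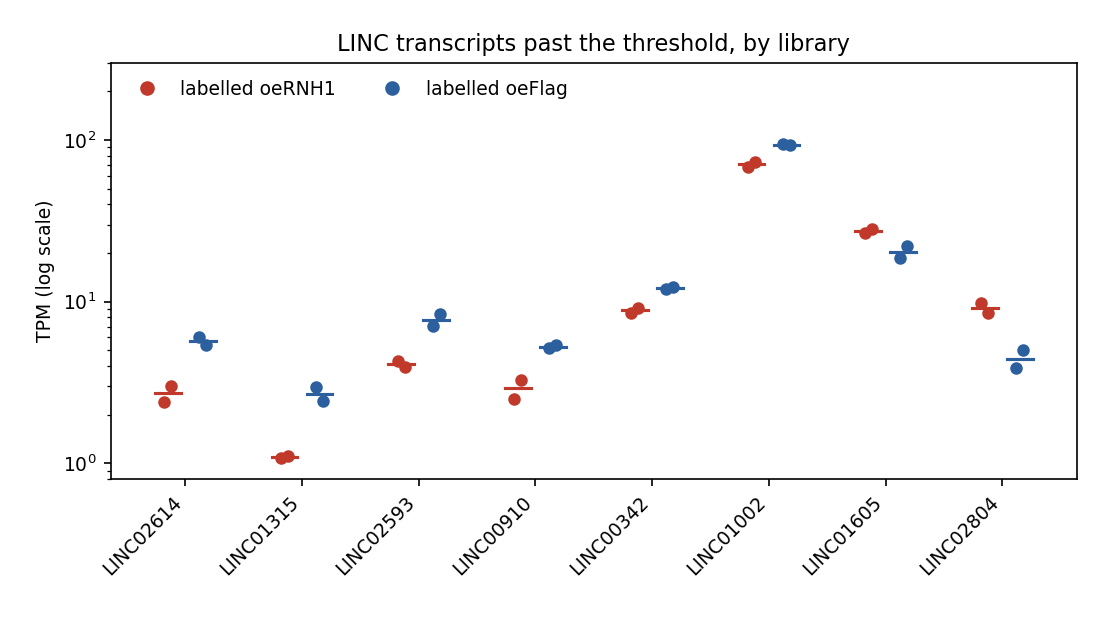
TPM (vertical axis, log scale) of the 8 called LINC transcripts in each library, with points for the 2 libraries labelled oeRNH1 (left of each pair) and the 2 labelled oeFlag (right) and a bar at each group's mean. The groups do not overlap in any of the 8, and LINC02614, LINC01315 and LINC02804 show the widest gaps.

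These calls, like nearly all in the table, rest on all 4 libraries and on the level-dependent variance. With any 1 library left out 0 of 163 LINC transcripts and 0 to 10 of all 15651 rows were called higher, and 0 of 163 and 0 to 5 of all rows lower, by limma, where 25 to 30 of the 163 and 3367 to 4035 of all rows had an unadjusted p under 0.05. With no filter on low values 0 of 163 and 0 of 28206 rows were called, and with no intensity trend 0 of 163 and 1 of 15651 (25 and 36 of the 163, and 5655 and 4337 of all rows, at an unadjusted p under 0.05). In both settings the fold changes of the called transcripts were as given above.

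Sequences around the RefSeq starts are given for the 4 called transcripts with a RefSeq promoter entry, all of them called lower. Whether the RNA measured for these genes begins at those starts was not tested. RefSeq windows on GRCh38.p14 hold 250 bases before and 50 after the start and are written in the direction of transcription, with capitals for any searched motif. 5 motifs were searched on both strands. The cAMP response element (CRE) was searched as TGACGTCA. AP-1 sites were searched as TGANTCA. The E-box, bound by MYC and related factors, was searched as CACGTG. The TATA box was searched as TATAAA, and sites of ETS factors were searched as CCGGAAG. No motif contains another.
LINC00910, chr17:43388849-43389148, minus strand: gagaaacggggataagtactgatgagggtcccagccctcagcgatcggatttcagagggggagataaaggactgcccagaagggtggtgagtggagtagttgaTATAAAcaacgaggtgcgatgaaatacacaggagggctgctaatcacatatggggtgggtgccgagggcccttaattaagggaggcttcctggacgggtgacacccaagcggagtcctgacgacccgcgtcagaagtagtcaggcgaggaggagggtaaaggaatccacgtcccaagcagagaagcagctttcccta
LINC01002, chr19:202160-202459, minus strand: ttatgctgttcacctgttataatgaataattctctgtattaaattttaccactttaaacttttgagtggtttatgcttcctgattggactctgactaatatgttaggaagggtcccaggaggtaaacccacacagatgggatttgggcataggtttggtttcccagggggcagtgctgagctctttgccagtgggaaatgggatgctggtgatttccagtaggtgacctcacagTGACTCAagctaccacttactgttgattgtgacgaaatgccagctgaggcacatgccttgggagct
LINC01315, chr22:42369159-42369458, minus strand: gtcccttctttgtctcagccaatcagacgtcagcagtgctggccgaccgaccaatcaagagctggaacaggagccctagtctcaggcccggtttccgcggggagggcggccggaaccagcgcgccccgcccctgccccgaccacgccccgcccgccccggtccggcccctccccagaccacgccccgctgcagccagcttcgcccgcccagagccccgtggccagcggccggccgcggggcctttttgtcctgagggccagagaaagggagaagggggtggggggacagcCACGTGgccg
LINC02593, chr1:919643-919942, minus strand: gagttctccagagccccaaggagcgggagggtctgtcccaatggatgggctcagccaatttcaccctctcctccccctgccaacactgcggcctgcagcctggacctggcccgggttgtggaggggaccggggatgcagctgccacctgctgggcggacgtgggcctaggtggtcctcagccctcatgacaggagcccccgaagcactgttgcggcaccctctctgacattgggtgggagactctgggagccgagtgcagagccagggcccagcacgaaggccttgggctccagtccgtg

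The 4 windows had little in common. LINC00910 held a TATA box from base 104, LINC01002 an AP-1 match from base 235, and LINC01315 an E-box from base 291, after the start, counting from the 5′ end. LINC02593 held none of the searched letters in this window. GC content was 72.7% with 28 CpG in LINC01315 and 66.7% with 11 CpG in LINC02593, against 45% with 1 CpG in LINC01002, and the median over all RefSeq windows was 58.7%. Of the 163 transcripts 109 had an entry, with 129 windows between them. Matches were counted per transcript for these 109, while the share in brackets counts single windows. The shares are therefore unlike measures, as a transcript with several windows has more chances of a match. The TATA box was in 16.5% of the 109 (11.5% of all 35116 windows), the E-box in 12.8% (7.26%), the ETS letters in 13.8% (10.3%), the AP-1 letters in 9.17% (7.71%) and the CRE in 2.75% (1.85%). A match is a description of letters and does not show a bound site. For all 4 the RefSeq start lies inside the GENCODE gene, in LINC01315 close to its 5′ end, so the windows belong to RefSeq models that start further in.

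Most of the larger differences did not pass the test. Of the 163, 25 had a log2 fold change of at least 0.5 in size, and 20 of these were not called, 7 of them positive and 13 negative. Of the 25, 20 had a mean under 5 TPM, and 3.38% of all rows of 1 to under 5 TPM were called. The share called among all rows with a difference of this size was not counted. The genes named here were chosen after their values were seen. LINC01775 had 3.19 and 1.37 TPM in the libraries labelled oeRNH1, against 0.48 and 0.50 TPM in those labelled oeFlag (log2 fold change 1.08 ± 0.31, SE, limma adjusted p = 0.0730). LINC01786 had 2.41 and 3.49 TPM in the libraries labelled oeRNH1, against 11.67 and 4.18 TPM in those labelled oeFlag (-1.05 ± 0.41, adjusted p = 0.141). In both the groups were apart, but one group's 2 libraries differed from each other by more than 2-fold. LINC02356 was listed at 0 and 1.41 TPM in the libraries labelled oeRNH1, against 1.80 and 2.09 TPM in those labelled oeFlag (-0.92 ± 0.42, adjusted p = 0.192).

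Of the 10 largest uncalled differences, LINC01411 and LINC02018 had the lowest adjusted p. For LINC02018, LINC02356, LINC01775, LINC01619 and LINC01659 only one group had a mean of at least 1 TPM, so that they were tested only through the group where they were high. LINC01411 had 3.10 and 3.26 TPM in the libraries labelled oeRNH1, against 1.74 and 1.14 TPM in those labelled oeFlag (log2 fold change 0.79 ± 0.19, SE, limma adjusted p = 0.0515). LINC02018 had 0.76 and 1.14 TPM in the libraries labelled oeRNH1, against 2.15 and 3.23 TPM in those labelled oeFlag (-0.91 ± 0.23, adjusted p = 0.0551). LINC01619, just inside the level threshold, had 1.40 and 1.62 TPM in the libraries labelled oeRNH1, against 0.29 and 0.74 TPM in those labelled oeFlag (0.74 ± 0.25, adjusted p = 0.101). Its gene model shares 503 exon bases with BTG1, an antiproliferative gene, so its reads cannot be told apart from those of BTG1 there. LINC00173, LINC00106, LINC01659 and LINC02321 had log2 fold changes of -0.79, -0.71, 0.72 and 0.70 and adjusted p between 0.0838 and 0.160.

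**Figure D3:**
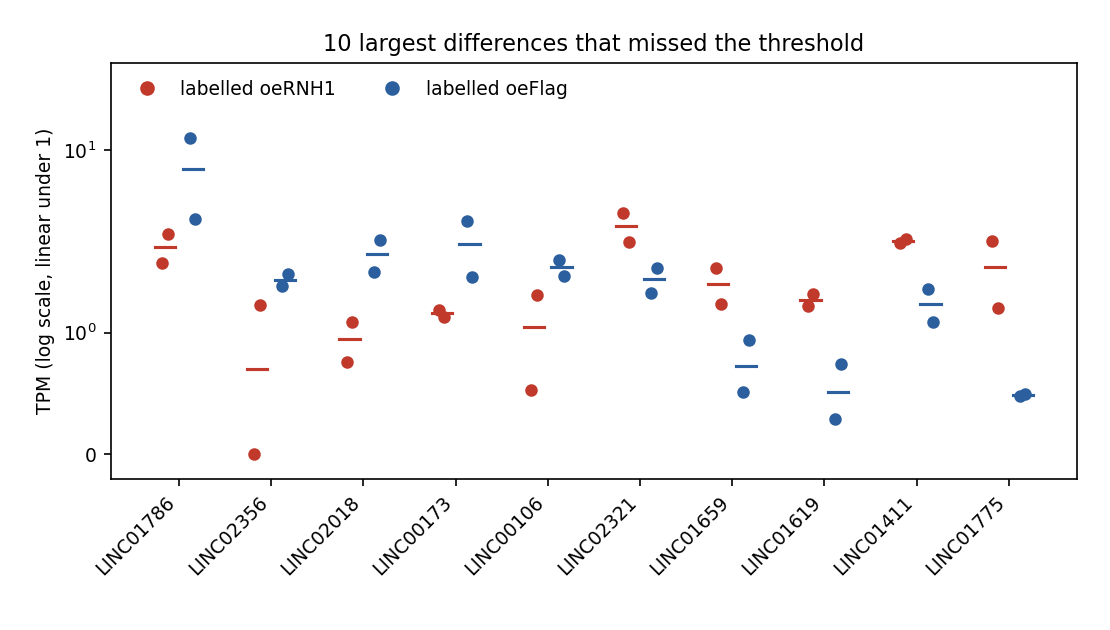
TPM (vertical axis, log scale above 1 and linear below) in each library of the 10 uncalled LINC transcripts with the largest log2 fold change in size, with points for libraries labelled oeRNH1 (left of each pair) and oeFlag (right) and bars at group means. LINC01786 and LINC01775 show a wide gap between the 2 libraries of one group, and LINC02356 has one library at 0.

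Of the 9 transcripts with a mean of 20 TPM or more, those other than LINC01002 and LINC01605 did not pass the test. LINC01234, described in several carcinomas, had 38.75 and 35.12 TPM in the libraries labelled oeRNH1, against 41.19 and 34.22 TPM in those labelled oeFlag (log2 fold change -0.02 ± 0.10, SE, 95% interval from -0.28 to 0.23). LINC02802 had 31.73 and 42.74 TPM in the libraries labelled oeRNH1, against 27.59 and 33.98 TPM in those labelled oeFlag (0.26 ± 0.16), a value made uncertain by the 73.6% of its 31-base words found in other genes. Groups overlapped in both. LINC00467, reported to encode a micropeptide, had 32.56 and 31.65 TPM in the libraries labelled oeRNH1, against 24.35 and 29.65 TPM in those labelled oeFlag (0.25 ± 0.10, limma adjusted p = 0.160). LINC01980 had 33.23 and 26.06 TPM in the libraries labelled oeRNH1, against 13.64 and 23.78 TPM in those labelled oeFlag (0.68 ± 0.25, adjusted p = 0.126). LINC00641, LINC02381 and LINC02693 had log2 fold changes of 0.18, 0.02 and 0.05. LINC02693 is annotated as protein-coding in GENCODE release 29.

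Of a list of LINC genes with a described role in other cells, chosen with earlier results known, 10 were among the 163. By limma 0 of the 10 were called (beside 11.8% of all rows), and 0 had an unadjusted p under 0.05 (beside 31.3% of all rows). The lowest unadjusted p by limma among them was 0.0504, of LINC00467, so that count depends on the threshold. Genes outside the list may have described roles as well. LINC00511, studied as a breast cancer transcript, had 2.50 and 2.78 TPM in the libraries labelled oeRNH1, against 2.15 and 1.41 TPM in those labelled oeFlag (log2 fold change 0.40 ± 0.20, SE, limma adjusted p = 0.231). LINC01116 had 2.58 and 2.75 TPM in the libraries labelled oeRNH1, against 1.49 and 2.02 TPM in those labelled oeFlag (0.42 ± 0.18, adjusted p = 0.181). LINC00665, known for a micropeptide in breast cancer cells, had a log2 fold change of 0.17 ± 0.25 with overlapping groups. LINC00667 and LINC00839 were at 0.43 ± 0.21 and 0.16 ± 0.10, and LINC00662 and LINC01138, the second described in hepatocellular carcinoma, at -0.01 ± 0.11 and 0.00 ± 0.17. LINC00461, a brain transcript that holds the hairpin of miR-9, fell short of the level threshold at 1.33 and 1.27 TPM in the libraries labelled oeRNH1, against 0.84 and 0.53 TPM in those labelled oeFlag. LINC00520 and LINC00941 had means of 0.0700 and 0.0450 TPM, and LINC00473 was not analysed here. Of the 163, LINC00472 and LINC01138 spanned microRNA hairpins of RefSeq on their own strand, MIR30A and MIR30C2 in LINC00472 and MIR5087 in LINC01138. LINC00472 had 3.78 and 3.17 TPM in the libraries labelled oeRNH1, against 2.59 and 3.16 TPM in those labelled oeFlag (0.21 ± 0.17, adjusted p = 0.439).

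The share called was lower among scarce transcripts, of LINC genes and of the whole table. Among those with a mean of 1 to under 5 TPM 3 of 121 were called (2.48%, beside 3.38% of all rows of that level), 0 higher (beside 2.0%) and 3 lower (beside 1.38%). Among those of 5 TPM or more 5 of 42 were called (11.9%, beside 15.2%), 2 higher (beside 7.99%) and 3 lower (beside 7.17%). Groups did not overlap in 80 of 163 LINC transcripts (49.1%), 37 of them higher and 43 lower, where 60.7% of all rows did not overlap, 31.3% higher and 29.4% lower. Within 1 to under 5 TPM this share was 48.8% against 48.3% of all rows, and at 5 TPM or more it was 21 of 42 against 65.6%. The median standard error of a log2 fold change was 0.20 for LINC transcripts and 0.10 for all rows, and within 1 to under 5 TPM it was 0.21 and 0.20. Other noncoding symbols lay in the same range, with 24 of 455 antisense transcripts (5.27%, 13 higher and 11 lower) and 5 of 203 divergent promoter transcripts (2.46%, 2 higher and 3 lower) called. Among protein-coding rows 1705 of 12900 were called (13.2%), but 81.8% of these rows had a mean of 5 TPM or more. Within 1 to under 5 TPM the shares were 2.85% of antisense, 1.28% of divergent and 3.32% of protein-coding rows. At 5 TPM or more they were 10.8%, 6.38% and 15.4%. Differences between these classes were not tested.

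**Figure D4:**
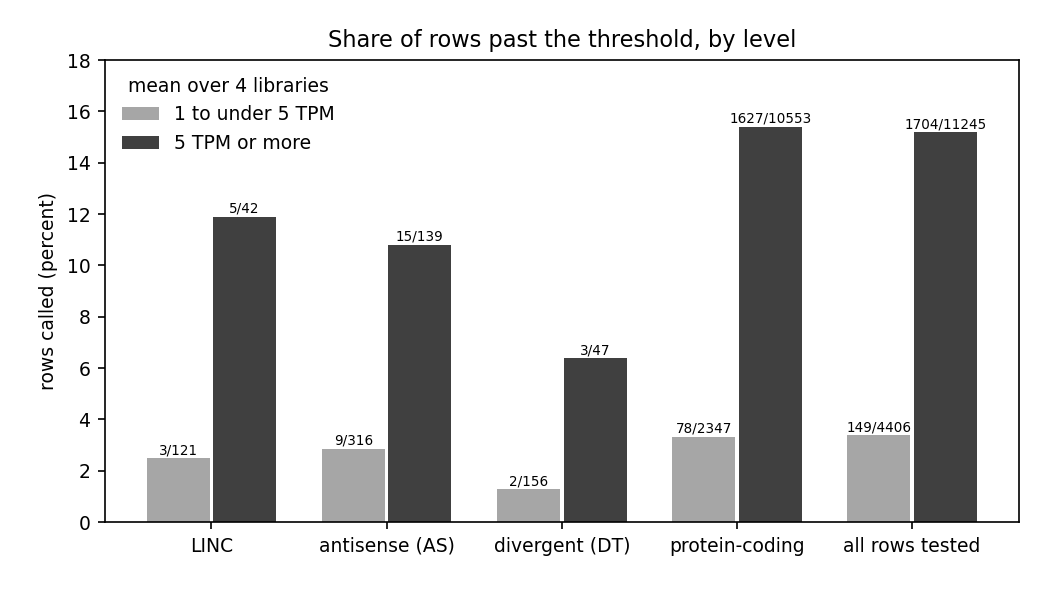
Percent of rows called at an adjusted p under 0.05 (vertical axis, from 0) for LINC, antisense, divergent and protein-coding rows and for all rows tested, split by mean level, with called and tested numbers above each bar. In each class the share is lower at 1 to under 5 TPM than at 5 TPM or more, and LINC transcripts are at 2.48% and 11.9%.

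Most of the 163 were intergenic by position. Gene models were found for 162 of the 163, of which GENCODE types 132 as lincRNA, 17 as processed transcript and 9 as antisense. In 139 (85.8%) the gene body overlapped no protein-coding gene, and their median distance to the nearest one was 19562 bases. In 23 it did overlap one, and in 16 exon bases were shared, so that reads of those bases cannot be assigned to one gene of the pair. Strand information, not stated here, would separate only pairs on opposite strands. In 13 the start lay within 1 kb of a protein-coding start on the other strand. Most were placed as divergent transcripts are, but LINC00476, LINC00649 and LINC01006 overlapped their coding partner. In these 13 pairs 0 LINC transcripts and 0 coding partners were called by limma, where 4.91% of all LINC transcripts and 13.2% of protein-coding rows were, and 7 pairs had the same sign. At an unadjusted p under 0.05 by limma there was 1 LINC transcript among the 13 (beside 19.0% of all LINC transcripts), LINC01424 (log2 fold change -0.56, adjusted p = 0.0958). There were 4 coding partners (beside 34.3% of protein-coding rows), CAPN15, SETD1B, UBE2G2 and SLX9 (adjusted p from 0.0735 to 0.135). These 5 were named after their values were seen. LINC genes had a median of 4 exon blocks, against 11 in protein-coding rows tested, and a median longest transcript of 1973 bases, against 3683.

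The nearest protein-coding genes had fold changes of the same sign as the LINC transcripts about as often as not. For 120 members the nearest protein-coding gene was itself tested, and the sign of the fold change was the same in 58 (48.3%). Across these 120 pairs of genes, which share libraries and are not independent replicates, Pearson's r was -0.05 and Spearman's rho -0.09. Of the 116 distinct neighbours 5 were called higher and 4 lower (7.76%, beside 11.8% of all rows). SAMD11 beside LINC02593, ANKRD36C beside LINC00342, ZNF703 beside LINC01605 and GPR89B beside LINC02804 had log2 fold changes of -0.12, -0.42, 0.16 and -0.00 and did not pass. The adjusted p from limma was 0.118 for ANKRD36C and 0.0789 for ZNF703, a transcriptional repressor, which passed after correction for GC content (log2 fold change 0.28, adjusted p = 0.0248). PLPP2 beside LINC01002 and NFAM1 beside LINC01315 had means of 0.488 and 0.0775 TPM and were not tested.

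**Figure D5:**
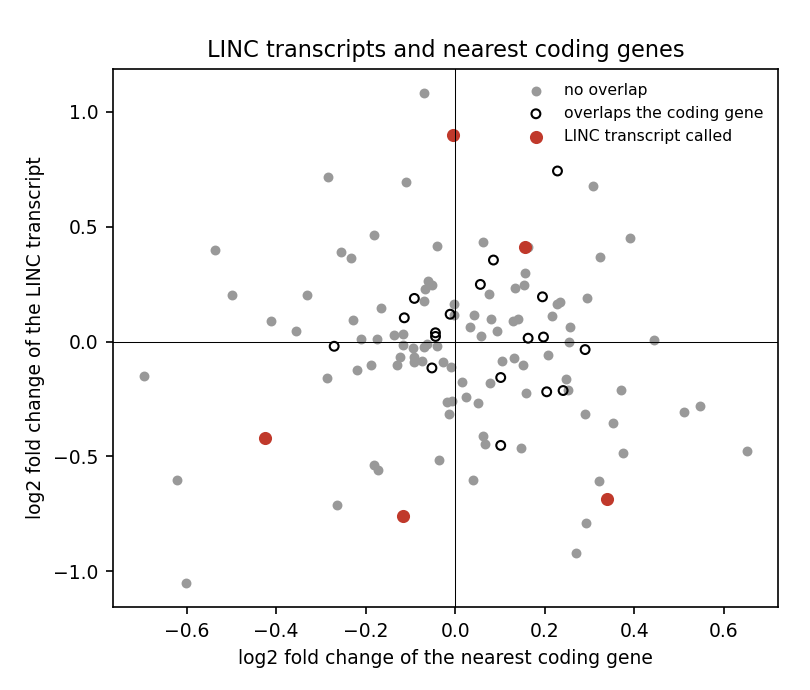
Log2 fold change, oeRNH1 minus oeFlag, of 120 LINC transcripts (vertical axis) against that of the nearest protein-coding gene (horizontal axis), with open circles where the 2 genes overlap and red points for the 5 called LINC transcripts whose neighbour was tested. The points form no line (r = -0.05), and the red points lie on both sides of the neighbour's zero line.

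Many LINC genes are repeated in part, which bears on how their reads were assigned. In 38 of 162 at least 20% of the 31-base words occur in transcripts of another gene, and in 32 none do. LINC01001 on chromosome 11 and LINC02887 on chromosome 17 share 31-base words with LINC01002 and with each other (43.4% of LINC01001 in LINC02887, 21.0% in LINC01002). Over all other genes 90.9% of the words of LINC01001 and 87.5% of those of LINC02887 are shared, most with AL669831.1 (62.2% and 75.9%). Their levels can therefore not be assigned to one locus. LINC01001 had 9.19 and 11.76 TPM in the libraries labelled oeRNH1, against 14.75 and 15.90 TPM in those labelled oeFlag (log2 fold change -0.52 ± 0.13, SE, limma adjusted p = 0.0537), and LINC02887 had 3.30 and 3.65 TPM in the libraries labelled oeRNH1, against 3.11 and 3.68 TPM in those labelled oeFlag (0.03 ± 0.15). LINC01001 was lower in both libraries labelled oeRNH1, and in LINC02887 the groups overlapped. LINC01106 and LINC01123, a pair on chromosome 2 sharing 78.1% of the words of LINC01106, had log2 fold changes of -0.37 ± 0.18 and -0.45 ± 0.17 and did not pass. Of the words of LINC01106 92.6% and of LINC01123 95.2% occur in other genes, so these values are uncertain as well.

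GC content of the transcript moved with the fold change in the LINC transcripts as in the whole table. Over 162 members Spearman's rho between GC content and log2 fold change was -0.17, and over 15323 rows -0.22. The 54 members of lowest GC had a median log2 fold change of 0.02, and the 54 of highest GC -0.09. The median GC content was 54.7% for the 6 called lower and 52.9% for the 2 called higher, against 49.1% for all members. After correction for GC content 2 of 162 were called higher (beside 5.32% of all rows) and 6 lower (beside 4.78%). Of these 6, 5 were also called lower without the correction. LINC01315 was lost, and LINC01515 was gained (log2 fold change -0.44, adjusted p = 0.0417, against -0.39 and 0.0510 without it). After correction for GC content, exon length and gene span 2 were called higher (beside 4.89%) and 4 lower (beside 4.61%).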

How the data were processed

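RNA from HEK293T cells was measured in 4 libraries, 2 per group, made from TRIzol-extracted RNA with a VAHTS mRNA-seq kit, per the labels' protocols. The authors deposited 1 table of TPM with a column for each library. STAR and hg38 are named in the submitters' processing notes, but neither their versions nor the quantifier, annotation release or strand setting is stated in the sources used here. TPM keeps no read number: depth is unknown, and counting intervals could not be given.

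Rows with a mean of at least 1 TPM were tested on log2(TPM + 1) with limma 3.58.1 (R 4.3.3; group term, moderated variances with an intensity trend, two-sided), with Benjamini-Hochberg adjustment over 15651 rows. The added 1 shrinks fold changes of low rows. Errors are standard errors of that model, or SDs of a library pair. Simulated data with known changes were used to test the fit. The members and lists were chosen with earlier results of these data known.

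Named transcripts are members called without overlap between groups, the 8 of highest mean, those of a list with described roles, and those nearest the 1 TPM threshold, with values of neighbours given for called members, apart from items not reported here; others were chosen after their values were seen. GENCODE release 29 (GRCh38) gave gene models and exon blocks, matched by identifier or symbol, and its longest transcript per gene gave GC content. LINC01605 has more than 1 Ensembl identifier, of which the printed one was used. Shared sequence was counted as 31-base words of a gene's transcripts found in transcripts of another gene, on either strand. Figures used matplotlib 3.10.9 in Python 3.11.15.

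Alternatives were pseudocounts of 0.1 and 5, no filter, a filter at 5 TPM in place of 1, scaling by quantiles or by median-of-ratios factors, robust or untrended variances, a replicate block, a 2-fold minimum change, a fit corrected for GC, one corrected for GC together with exon length and gene span, and leaving out each library.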

Additional observations from a re-analysis of the deposited data

How the results depend on the processing

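The count of LINC transcripts called higher, 2 in the analysis as reported (6.3% of all rows), was 0 with no filter, 0 with no intensity trend and 0 with a minimum change of 2-fold, where 0, 1 and 1 of all rows were. It was 1 with quantile normalization (5.99% of all rows) and 1 with median-of-ratios scaling (6.03%). The count called lower, 6 as reported (5.54% of all rows), was 0 in the first 3 of these settings, where 0 of all rows were. Leaving out each library gave 0 to 0 in both directions (lowest and highest), where 0 to 10 of all rows were called higher and 0 to 5 lower, so calls were lost across the table. Such fits have 1 library in a group, assumed to vary like the other group. In the other settings the counts lay from 2 to 3 higher and 4 to 7 lower, apart from the block. With the replicate number as a block, 4 were called higher (7.95% of all rows) and 8 lower (7.65%). The numbers share no stated pairing, and deviations of same-numbered libraries correlated at 0.03 over all rows, so the block is not read as a paired design.

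Of 698 values of 45 single genes under alternatives 602 kept direction and side of the threshold, 68 lost the call, 9 gained it and 19 changed sign. Every change of sign was in a gene not called. As log2 fold changes over the fits that leave out 1 library, LINC01234 ranged from -0.155 to 0.105, LINC02381 from -0.065 to 0.11, LINC00662 from -0.085 to 0.062, LINC00665 from -0.090 to 0.436, LINC01138 from -0.176 to 0.182, LINC01134 from -0.309 to 0.089, GPR89B from -0.192 to 0.184, and LINC02887 from -0.066 to 0.122. Quantile normalization gave 0.012 for LINC00662 and 0.014 for GPR89B, and median-of-ratios scaling gave -0.005 for LINC01138. SAMD11 was at 0.028 after GC correction and at 0.016 after correction for GC, exon length and gene span. The causes were not tested.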

Other observations

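LINC rows under the level threshold were listed above 0 more often in the libraries labelled oeRNH1, as were rows of that level in the whole table. Of the 1956 LINC rows with a mean under 1 TPM, 538 and 531 were above 0 in the libraries labelled oeRNH1, against 431 and 428 in those labelled oeFlag. The ratio was 1.24, where that over all rows with a mean under 1 TPM was 1.12. At 0.1 TPM or more there were 355 and 390 rows, against 325 and 314 (ratio 1.17, 1.09 over all such rows). Of these 1956 LINC rows 59 were above 0 in both libraries labelled oeRNH1 and at 0 in both labelled oeFlag, and 14 the other way round. Of all 23321 rows under 1 TPM, 648 and 252 were. With at least 0.1 TPM in both libraries the numbers were 22 and 7 of the 1956 LINC rows, beside 330 and 165 of the 23321. LINC02818 was the highest of the 22, at 2.35 and 1 TPM in the libraries labelled oeRNH1 and listed at 0 in both labelled oeFlag. LINC02526 was the highest of the 7, listed at 0 in both libraries labelled oeRNH1, against 0.39 and 0.82 TPM in those labelled oeFlag. The summed level of LINC rows with a mean under 1 TPM was 147.5 and 155.8 TPM in the libraries labelled oeRNH1, against 133.4 and 128.3 TPM in those labelled oeFlag (ratio 1.16, 1.10 over all rows under 1 TPM). Detection near 0 moves with sequencing depth, which is unknown here, and its part was not tested.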
